A study of Mus musculus with 2 samples.

Results

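The aryl hydrocarbon receptor gene Ahr was examined together with 8 genes that act with it or under it: its partners Arnt and Arnt2, its repressor Ahrr, its chaperones Ptges3 and Hsp90ab1, and 3 genes that it is known to induce, Tiparp, Cyp1b1 and Nqo1. The 9 genes were chosen by symbol, and each matched exactly 1 of the 32285 genes counted. The counts come from single nuclei of the tibialis anterior, the muscle along the shin, of male mice aged 16 to 20 weeks. All mice had chronic kidney disease, and 5 days before collection their femoral artery, the main supply of the leg, had been ligated. Of the 2 libraries, 1 was labelled AHRfl/fl and 1 AHRmKO, and both carry the same strain label, a cross of AHRtm3.1Bra/J with Tg(ACTA1-cre/Esr1*)2Kesr/J. The first strain has an Ahr allele flanked by recombination sites. In the second, a promoter of skeletal actin drives a Cre recombinase fused to an oestrogen receptor domain, so that deletion is directed at differentiated muscle fibres and not at satellite cells, macrophages, fibroblasts or vessels. The sources used here state neither the number of mice behind a library nor whether or when a ligand for the fused Cre was given. Each group is 1 library without a replicate, so groups were not tested against each other and p-values are not given. Intervals given below are 95% intervals that cover counting error only.

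AHR is a transcription factor of the basic helix-loop-helix PAS family that is switched on by small molecules. They include dioxins, many tryptophan metabolites and uraemic solutes such as indoxyl sulfate and kynurenines, which build up when the kidneys fail. Without a ligand it waits in the cytoplasm in a complex with HSP90, the cochaperone p23 (encoded by Ptges3) and other proteins. On binding a ligand it enters the nucleus, pairs with ARNT and binds DNA at response elements with the core GCGTG. Its targets include detoxifying enzymes and its own brakes: AHRR competes for ARNT, and TIPARP, an ADP-ribosyltransferase, modifies AHR and lowers its level. Muscle AHR in the ischaemic limb of mice with kidney disease was the subject of the study.

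The Ahr gene (ENSMUSG00000019256) lies on the minus strand at chr12:35497974-35535038 in GRCm38, and its 5' end overlaps the long noncoding gene Gm48236 of the other strand over 618 bases. Its transcript with the most exons in GENCODE M21 has 11 exons and 5548 bases. The allele in the label is known for recombination sites around exon 2, which encodes the DNA-binding helix-loop-helix region. That exon is shown because it is the stretch that recombination is known to remove; it lies at chr12:35526681-35526868, has 188 bases, all coding, and its length leaves a remainder of 2 when divided by 3.
Ahr exon 2: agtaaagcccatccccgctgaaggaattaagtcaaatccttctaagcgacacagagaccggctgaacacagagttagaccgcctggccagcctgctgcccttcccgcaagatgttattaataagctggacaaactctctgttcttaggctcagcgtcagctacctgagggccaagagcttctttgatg
The exon ends 4883 bases before the 3' end of the transcript, while the library chemistry reads from the 3' end. A count per gene therefore does not show whether a transcript holds this exon, so the Ahr counts are no check of the deletion, and both libraries are called here by their labels.

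For 7 of the 9 genes, RefSeq promoter sequences (GRCm38.p6) from 250 bases before to 50 after the start site were at hand. The response core was searched as GCGTG on both strands (CACGC on the printed strand). It occurs in 32.4% of all 32851 promoters of that length, and the longer form TNGCGTG in 5.07%. Upstream parts of 250 bases are shown for the repressor and the 3 induced genes, 5' to 3' on the strand of the gene, since these are the members that AHR is known to act on; capitals mark the core.
Ahrr: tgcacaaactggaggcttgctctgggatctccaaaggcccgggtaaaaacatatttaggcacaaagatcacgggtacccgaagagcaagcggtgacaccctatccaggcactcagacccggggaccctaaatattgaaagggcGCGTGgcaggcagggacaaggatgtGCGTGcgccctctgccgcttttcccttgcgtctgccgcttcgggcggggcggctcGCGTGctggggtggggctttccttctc
Tiparp: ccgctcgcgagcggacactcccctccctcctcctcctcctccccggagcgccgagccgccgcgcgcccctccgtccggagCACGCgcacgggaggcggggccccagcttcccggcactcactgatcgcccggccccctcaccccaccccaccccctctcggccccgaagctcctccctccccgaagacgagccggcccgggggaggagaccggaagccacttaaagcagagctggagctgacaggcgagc
Cyp1b1: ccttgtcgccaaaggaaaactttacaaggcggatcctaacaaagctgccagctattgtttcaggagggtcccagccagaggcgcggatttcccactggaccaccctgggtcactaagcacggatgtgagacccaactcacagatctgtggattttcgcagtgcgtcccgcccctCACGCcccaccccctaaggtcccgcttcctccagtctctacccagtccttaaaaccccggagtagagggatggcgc
Nqo1: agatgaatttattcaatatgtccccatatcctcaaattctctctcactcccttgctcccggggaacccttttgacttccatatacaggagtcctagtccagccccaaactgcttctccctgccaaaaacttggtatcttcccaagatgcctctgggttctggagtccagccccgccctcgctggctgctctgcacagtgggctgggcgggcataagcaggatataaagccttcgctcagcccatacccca
Ahrr (promoter chr13:74292282-74292581) holds 3 cores, 1 of them in the longer form. Tiparp (chr3:65528197-65528496) and Cyp1b1 (chr17:79715012-79715311) hold 1 each, and Nqo1 (chr8:107403156-107403455) none in this window. Among the other members, Ptges3 holds 2, Arnt 1 and Arnt2 none. The coordinates are those of the whole windows of 300 bases, on the minus strand except for Tiparp. A match describes letters only and does not show binding.

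The deposited counts are unique molecular identifiers (UMIs), 1 for each captured RNA molecule, in all 151788328 for AHRfl/fl and 113737134 for AHRmKO. Barcodes with at least 2000 UMIs, at most 10% mitochondrial UMIs and no high doublet score were taken as nuclei, 17070 in AHRfl/fl and 7660 in AHRmKO. Median mitochondrial shares were 0.907% and 2.33%. Only 43 barcodes with 2000 or more UMIs occurred in both libraries. Nuclei were clustered without the 9 genes and clusters were named from marker lists. Macrophage or monocyte-like nuclei numbered 7293 and 2441, and satellite cell or myoblast-like 3139 and 1479 (AHRfl/fl first, here and below). A group of 3 muscle clusters, 6, 7 and 18, numbered 3620 and 1124 and is called by its cluster numbers. Each held 10 of 12 markers of immature myonuclei, those of newly formed fibres, but also 12, 9 and 13 of the 16 myofibre markers. Among the 10 leading genes of cluster 6 there were 2 myofibre markers (Trdn, Mybpc1) and among those of cluster 18 there were 3 (Ryr1, Ttn, Neb), against 1 immature marker (Ncam1) in each. Nearly all of its AHRfl/fl nuclei lay in clusters 6 and 7 (2337 and 1250) and of its AHRmKO nuclei in cluster 18 (1119), so each value that sets its libraries side by side sets different clusters side by side. Myofibre-like nuclei, with 14 and 15 of the 16 myofibre and 1 of 12 immature markers in their clusters 8 and 9, numbered 392 and 593, fibroadipogenic or fibroblast-like 1358 and 633, and endothelial-like 297 and 165. Of the myofibre-like nuclei, 390 of 392 lay in cluster 8 in AHRfl/fl and 524 of 593 in cluster 9 in AHRmKO. Each myofibre-like ratio below thus sets mostly different clusters side by side as well. Adipocyte-like nuclei, 103 and 78, were too few to be compared, and 868 and 1147 nuclei stayed unnamed. All 13 endothelial, 14 fibroblast and 16 macrophage markers were highest in their own class among the compared classes in both libraries, as were 11 of 12 satellite markers, and all 12 immature markers were highest in clusters 6, 7 and 18. Of the 16 myofibre markers, 11 and 14 were. Most clusters came mainly from 1 library, so cluster and library often cannot be told apart. Levels are UMIs per 1000000 UMIs of the class (CPM). Free RNA, which leaks from broken cells into every droplet, was read from barcodes of 200 to under 500 UMIs (free RNA without further words below), and markers of mature fibres in macrophage-like and endothelial-like nuclei put its share of a nucleus's UMIs at 20.3% and 21.6%. Read from barcodes of at most 100 UMIs, the share was 32.3% and 17.8%, and some genes stood at another level, which is given where it changes a statement.

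Among the compared classes, Ahr itself was lowest in myofibre-like nuclei. In myofibre-like nuclei only 11 UMIs were counted in AHRfl/fl (5.69 CPM, 2.84 to 10.2) and 12 in AHRmKO (5.77 CPM, 2.98 to 10.1). At the shares estimated above, free RNA alone would give 3.76 and 4.35 CPM there, which lie inside these intervals. With these shares, Ahr in myofibre-like nuclei of either library was not told apart from free RNA. The shares may be too high, since clusters 6, 7 and 18 held less Cyp1b1 (upper limits 2.55 and 1.14 CPM) than they would give (4.18 and 1.68 CPM). With lower shares the Ahr level from free RNA would fall, so these counts do not settle whether myofibre-like nuclei hold Ahr. The log2 ratio of AHRmKO over AHRfl/fl was 0.02 (-1.29 to 1.34). It sets mostly cluster 8 (AHRfl/fl) beside cluster 9 (AHRmKO). Both the ratio and the level depend on where the class ends: together with clusters 6, 7 and 18, which also carry most myofibre markers, the level was 28.8 and 31.4 CPM (620 and 264 UMIs). With finer clusters the myofibre-like nuclei of AHRmKO held 234 Ahr UMIs at 31.9 CPM and the ratio was 2.45, and with the libraries clustered apart it was -2.56. Without the filters on nuclei the class held 31.2 and 32.7 CPM, and with each nucleus classed on its own markers 30.6 and 27.0 CPM. In such sums, a changed mix of nuclei within the class and a changed level within its nuclei cannot be told apart.

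Outside myofibre-like nuclei the receptor was read in every large class. Endothelial-like nuclei had the highest level, 71.7 CPM (58.7 to 86.8, 105 UMIs) in AHRfl/fl and 113.2 CPM (92.9 to 136.5, 109 UMIs) in AHRmKO. Satellite-like nuclei, the stem cells of muscle and their progeny, came next with 44.2 CPM (40.8 to 47.9) and 52.4 CPM (47.3 to 57.8). Clusters 6, 7 and 18 held 31.1 CPM (28.7 to 33.7) and 39.8 CPM (35 to 45). Macrophage-like nuclei held 28.4 CPM (26.5 to 30.5) and 34.1 CPM (30.8 to 37.6), which overlaps clusters 6, 7 and 18 in each library. Fibroblast-like nuclei followed with 16.2 CPM (13.1 to 19.7) and 28.5 CPM (22.7 to 35.3), the latter overlapping the macrophage level. Adipocyte-like nuclei gave 9 UMIs (15.5 CPM, 7.08 to 29.4) in AHRfl/fl and 0 in AHRmKO, where 3 counts would be 7.53 CPM. The order endothelial, satellite, the 3 muscle clusters, macrophage, fibroblast, myofibre was thus the same in both libraries. Endothelial-like nuclei stayed the highest class in both under all 12 alternatives that gave at least 5 classes a level. Myofibre-like nuclei stayed the lowest in 8 of these in AHRfl/fl and in 10 in AHRmKO. After each nucleus was thinned to 2000 UMIs, 10.8% (7.49 to 14.9) and 19.4% (13.7 to 26.3) of endothelial-like nuclei held an Ahr UMI, against 0.765% and 1.69% of myofibre-like nuclei. Without thinning these shares were 24.6% and 30.3% against 2.30% and 2.02%, at median depths of 3569 and 4225 UMIs against 4439.5 and 2989.

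Between the libraries, Ahr was not lower in AHRmKO in any of the 6 compared classes; adipocyte-like nuclei, with 9 and 0 UMIs, were too few to compare. The sum over all nuclei gave 2385 UMIs, or 31.5 CPM, and 1333 UMIs, or 35.8 CPM. The log2 ratio of these was 0.18 (0.09 to 0.28). The ratio was 0.80 (0.38 to 1.25) in fibroblast-like, 0.65 (0.26 to 1.06) in endothelial-like, 0.35 (0.14 to 0.57) in clusters 6, 7 and 18, 0.26 (0.09 to 0.44) in macrophage-like and 0.24 (0.06 to 0.43) in satellite-like nuclei. It kept its sign in the endothelial, fibroblast, macrophage and satellite classes under each alternative that gave a value. In clusters 6, 7 and 18 (under another clustering, the nuclei that the same rule put together) it was below 0 under 5 of 13 alternatives, down to -0.74. Nearly all AHRfl/fl nuclei there lay in clusters 6 and 7 and the AHRmKO nuclei in cluster 18, so this ratio sets different clusters side by side. The unnamed cluster 19, mostly AHRmKO and with lower Ahr as given below, was in neither sum. The macrophage and satellite sums do not hold the mix of clusters fixed either. Cluster 21 held 14 AHRfl/fl and 1968 AHRmKO macrophage-like nuclei, and cluster 13 held 1965 and 39 satellite-like ones. In the cycling clusters 3 (macrophage) and 10 (satellite), which both libraries share, the levels were close, as given below. The endothelial excess rests on 165 nuclei in AHRmKO, and the lowest values under an alternative were 0.03 for the fibroblast and 0.03 for the satellite class. Endothelial markers were also higher in AHRmKO in the endothelial class, such as Pecam1 (930.5 and 1518.7 CPM) and, by little, Cdh5 (345.7 and 360.2 CPM). Fibroblast markers moved both ways in theirs, such as Col3a1 (4347.7 and 1982.6 CPM) and Ebf2 (695.6 and 1012.4 CPM). Whether the Ahr ratios go with these shifts was not tested. Every ratio of both classes below has the same shifts beside it.

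Within the muscle lineage the receptor was not evenly spread. Satellite-like nuclei led by Pax7, the transcription factor of muscle stem cells, held 39.2 CPM in cluster 13 (AHRfl/fl) and 59.1 CPM in cluster 20 (AHRmKO). In cycling satellite-like nuclei (cluster 10, with genes of cell division such as Top2a), the libraries were close, 50.2 CPM (44.8 to 56.1) and 48.1 CPM (41.9 to 54.9). The level was lower in nuclei with the highest Myog, the factor of muscle differentiation: 16.9 CPM (13.8 to 20.6) in cluster 7 of AHRfl/fl, where Myog stood at 280.4 CPM. In the unnamed cluster 19 of AHRmKO, whose leading genes include Ttn and Ryr1 and where Myog stood at 117.5 CPM, it was 15.8 CPM (12.5 to 19.7). It was 37.3 CPM (34.2 to 40.7) in cluster 6 of AHRfl/fl and 40.2 CPM (35.4 to 45.5) in cluster 18 of AHRmKO, both rich in Myh3, the embryonic myosin of new fibres. Myofibre-like clusters were lowest, with 5.74 CPM in cluster 8 of AHRfl/fl and 6.08 CPM in cluster 9 of AHRmKO. In both libraries the level was thus high in satellite-like clusters, lower in the cluster with the most Myog, high again in those with the most Myh3, and lowest in myofibre-like clusters. This describes clusters that, cluster 10 apart, were mostly of 1 library.

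**Figure D1:**
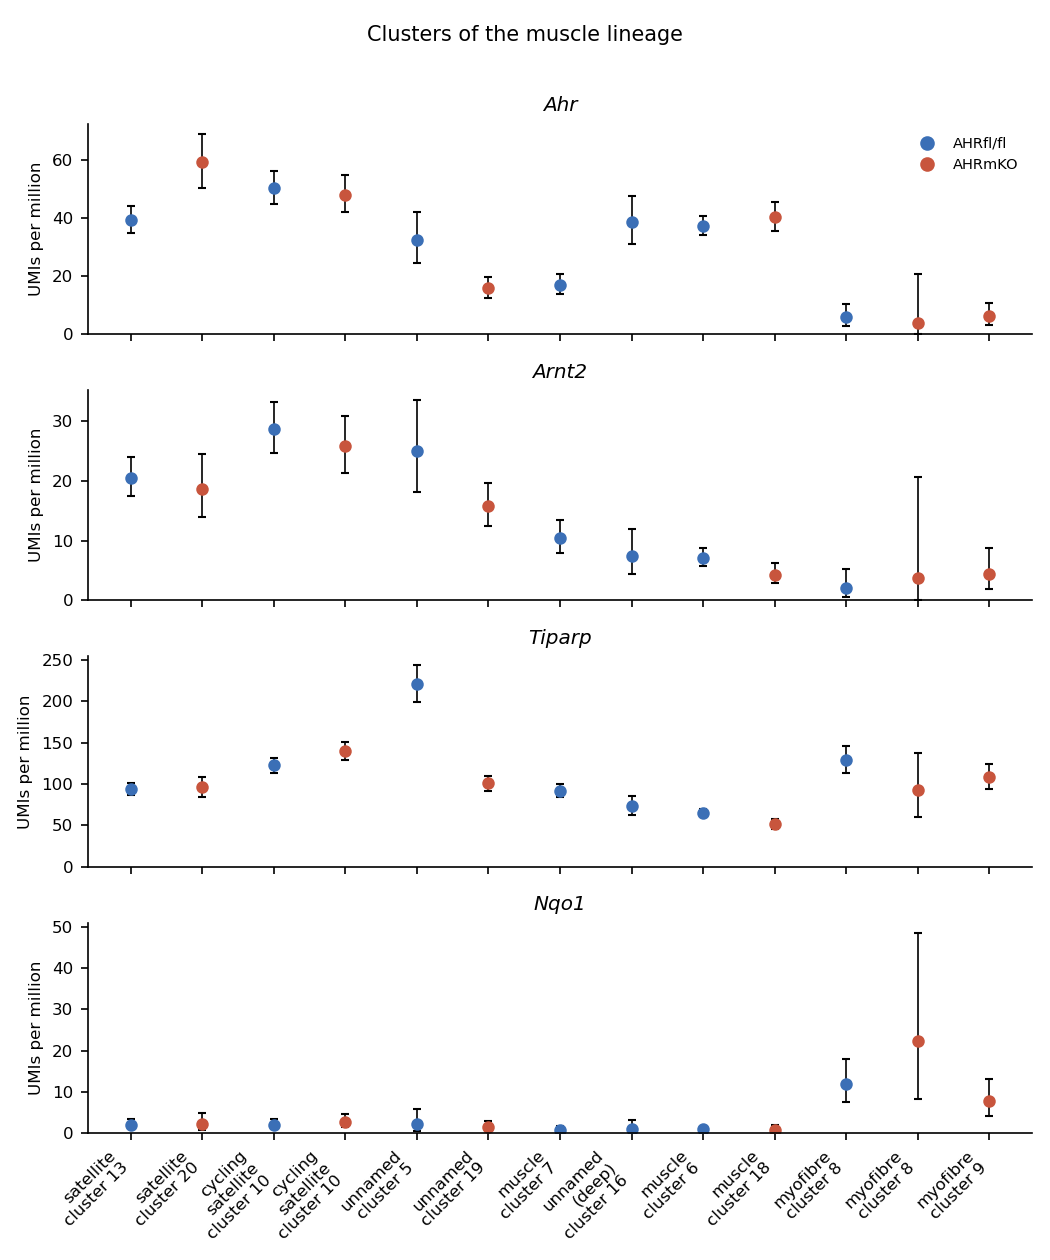
Level of Ahr, Arnt2, Tiparp and Nqo1 (y axes, UMIs per 1000000) in each cluster of the muscle lineage (x axis), AHRfl/fl in blue and AHRmKO in red, with 95% Poisson intervals. Ahr lies between 16.9 and 50.2 in the satellite clusters and clusters 6 and 7 of AHRfl/fl and at 5.74 in its myofibre-like cluster, while Nqo1 is highest in the myofibre-like clusters.

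Macrophage-like nuclei also differed among themselves. Cluster 1, led by genes that include Gpnmb, a lipid-handling macrophage gene at 3329 CPM there, held Ahr at only 10.4 CPM (7.40 to 14.1), and cycling macrophages (cluster 3) held 14.4 CPM and 14.1 CPM. The other AHRfl/fl macrophage clusters lay between 31.4 and 35.5 CPM, including cluster 2, which is led by the resident macrophage genes Mrc1 and F13a1 (32.3 CPM, 27.5 to 37.7). The large AHRmKO cluster 21 held 39.6 CPM (35.6 to 44.0).

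The main partner, Arnt (ENSMUSG00000015522, chr3:95434388-95497240, plus strand), which AHR needs to bind DNA and which also serves the hypoxia factors, was present in all classes at similar levels. It ranged from 154.9 CPM in clusters 6, 7 and 18 to 238.1 CPM in myofibre-like nuclei of AHRfl/fl, and from 118.6 CPM in clusters 6, 7 and 18 to 213.7 CPM in fibroblast-like nuclei of AHRmKO. Myofibre-like nuclei thus held Arnt (238.1 CPM, 216.9 to 260.9, and 188.1 CPM, 169.9 to 207.7) while Ahr was near what free RNA alone would give at the estimated shares. Arnt was lower in AHRmKO in all 6 classes, with a log2 ratio of -0.39 (-0.50 to -0.28) in satellite-like, -0.38 (-0.50 to -0.27) in clusters 6, 7 and 18, -0.34 (-0.54 to -0.14) in myofibre-like and -0.31 (-0.38 to -0.23) in macrophage-like nuclei. In fibroblast-like and endothelial-like nuclei the ratios, -0.09 and -0.14, had intervals that include 0. Only the satellite and macrophage ratios kept their sign under all alternatives run. Free RNA went the other way, with Arnt at 71.8 CPM in AHRfl/fl and 122.5 CPM in AHRmKO, but in barcodes of at most 100 UMIs Arnt was level at 114.7 and 114.3 CPM (-0.26 to 0.25 for the log2 ratio). With either profile subtracted, Arnt was lower in AHRmKO in all 6 classes still, with ratios of -0.57 and -0.56 in satellite-like and -0.44 and -0.48 in macrophage-like nuclei. The gene holds a pseudogene, Gm42672, on its own strand.

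Arnt2 (ENSMUSG00000015709, chr7:84246278-84410176, minus strand), a close relative of Arnt better known from neurons, was concentrated in satellite-like nuclei. It stood there at 24.3 CPM (21.7 to 27.0) and 23.1 CPM (19.8 to 26.8), close to each other at a log2 ratio of -0.07 (-0.34 to 0.20). Clusters 6, 7 and 18 held 8.08 CPM (6.87 to 9.44) and 4.26 CPM (2.81 to 6.20), and every other compared class of both libraries 4.33 CPM or less, the level in myofibre-like nuclei of AHRmKO, against 4.13 and 6.62 CPM in free RNA. Satellite-like nuclei carried 52.3% (48.3 to 56.2) and 54.9% (49.2 to 60.4) of all Arnt2 UMIs of nuclei, with 18.1% and 20.4% of all UMIs. Along the lineage Arnt2 was at 28.7 and 25.8 CPM in cycling satellite-like nuclei, 10.4 CPM in cluster 7, 7.14 CPM in cluster 6 and 4.34 CPM in cluster 18. Satellite-like nuclei were the highest class under all 12 alternatives in each library. The gene overlaps Gm30873 of the other strand over 9775 bases, and whether counting used strand is not given in the sources used here.

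Ahrr (ENSMUSG00000021575, chr13:74211118-74292331, minus strand), the repressor that competes with AHR, had most of its UMIs in macrophage-like nuclei. These held 5.39 CPM (4.56 to 6.33, 150 UMIs) and 5.30 CPM (4.06 to 6.79, 62 UMIs). Their log2 ratio was -0.02 (-0.48 to 0.41). They carried 83.8% (77.6 to 88.9) and 78.5% (67.8 to 86.9) of its UMIs, with 36.7% and 31.5% of all UMIs. Endothelial-like nuclei gave 5 UMIs in each library, at 3.42 CPM (1.11 to 7.97) and 5.19 CPM (1.69 to 12.1), which overlap the macrophage levels. Macrophage-like nuclei were the highest class under all 12 alternatives in AHRfl/fl and under 9 of 12 in AHRmKO. Satellite-like, fibroblast-like and myofibre-like nuclei and clusters 6, 7 and 18 gave between 0 and 7 UMIs each, none above the 1.66 and 1.65 CPM of free RNA. Myofibre-like nuclei held 0 in AHRfl/fl, where 3 counts would be 1.55 CPM, and 3 UMIs in AHRmKO. After thinning, 1.17% and 1.31% of macrophage-like nuclei held an Ahrr UMI (1.93% and 2.34% without thinning), against 0.064% and 0.135% of satellite-like nuclei (0.127% and 0.135%), at median depths of 2964 and 3254 against 3899 and 3911 UMIs. Among AHRfl/fl macrophage clusters Ahrr lay between 1.78 CPM in cluster 12, which also holds 6 satellite markers, and 9.05 CPM in cluster 4. The low Ahr of cluster 1 came with 4.92 CPM of Ahrr (2.96 to 7.68), within the range of the others.

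**Figure D2:**
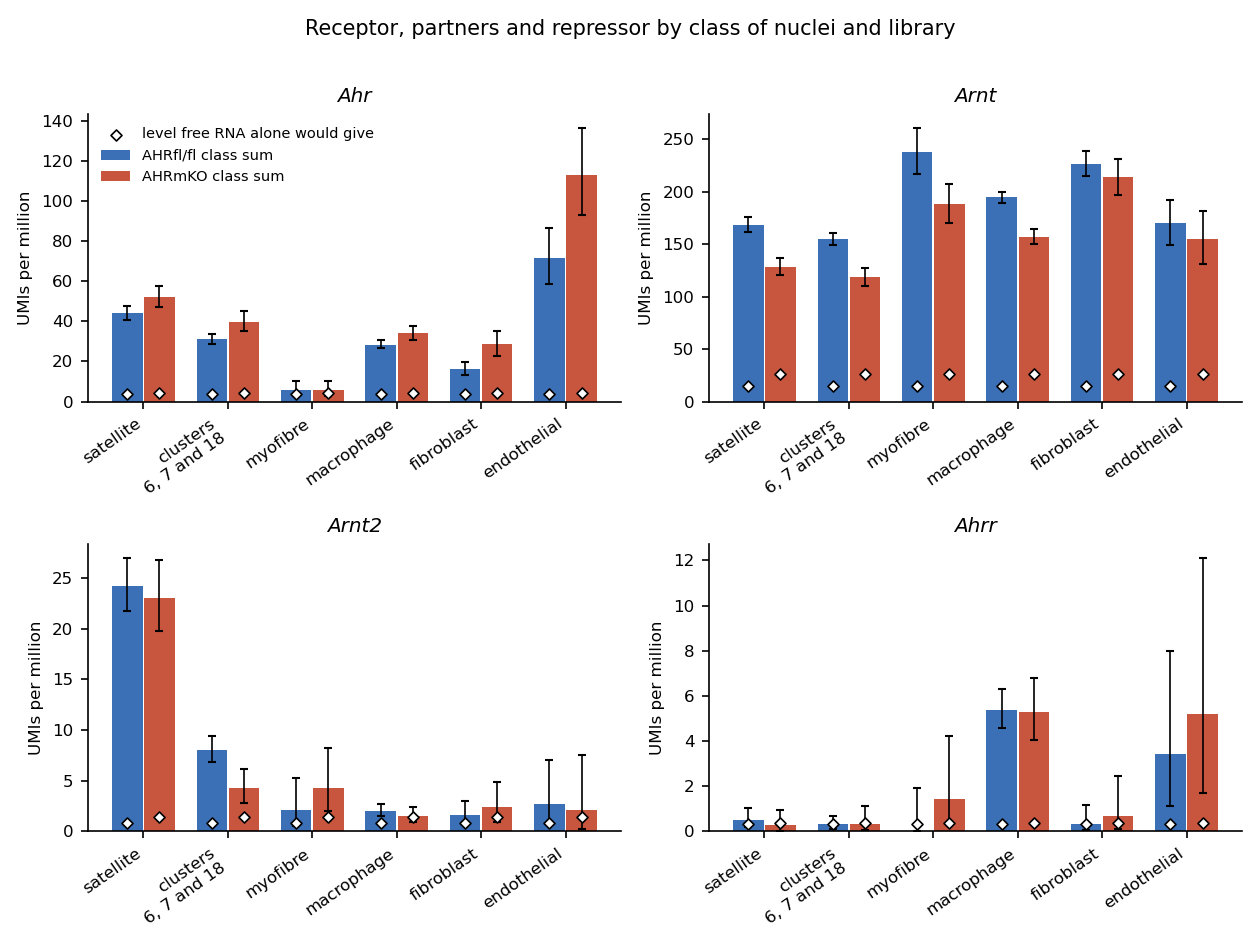
Level (y axes, UMIs per 1000000 of the class) of Ahr, Arnt, Arnt2 and Ahrr in 6 classes of nuclei (x axes), AHRfl/fl in blue and AHRmKO in red. Lines are 95% Poisson intervals and diamonds the level that free RNA alone would give at the estimated shares. Ahr is highest in endothelial-like and lowest in myofibre-like nuclei, Arnt2 stands at 24.3 and 23.1 in satellite-like nuclei, and Ahrr at 5.39 and 5.30 in macrophage-like nuclei.

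The chaperone genes were broadly present. Ptges3 (ENSMUSG00000071072, chr10:128058954-128077272, plus strand) encodes p23, which stabilises the complex of HSP90 with AHR. Levels in the compared classes ran from 57.1 CPM in macrophage-like to 112.8 CPM in myofibre-like nuclei of AHRfl/fl and from 68.2 CPM in fibroblast-like to 93.0 CPM in satellite-like nuclei of AHRmKO. Myofibre-like nuclei had less in AHRmKO (73.1 against 112.8 CPM, log2 ratio -0.62, -0.93 to -0.32), while satellite-like and macrophage-like nuclei had more (0.27, 0.14 to 0.41, and 0.27, 0.15 to 0.40). The myofibre ratio sets mostly cluster 8 (AHRfl/fl) beside cluster 9 (AHRmKO). It lost its sign under 1 of 13 alternatives, and the other 2 ratios kept theirs but moved. With free RNA subtracted they became 0.76 in satellite-like and 1.001 in macrophage-like nuclei, and with nuclei thinned to 2000 UMIs 0.09 and 0.06. Every class of AHRfl/fl lay below the free RNA level of 142.1 CPM, and free RNA of AHRmKO was at 59.8 CPM. In barcodes of at most 100 UMIs the levels were 76.9 and 70.2 CPM, so that myofibre-like nuclei of AHRfl/fl (112.8 CPM, 98.4 to 128.9) lay above that profile (65.7 to 89.4).

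Hsp90ab1 (ENSMUSG00000023944, chr17:45567775-45573271, minus strand), the constitutive HSP90 that holds unliganded AHR, was counted at a lower level in AHRmKO in all 6 compared classes. Macrophage-like nuclei held 290.2 CPM (283.9 to 296.6) and 52.6 CPM (48.5 to 56.9), endothelial-like 365.5 and 113.2 CPM, and fibroblast-like 246.2 and 77.4 CPM. In the muscle lineage the levels were 302.1 and 152.2 CPM in satellite-like, 256.8 and 116.4 CPM in clusters 6, 7 and 18 and 256.2 and 76.5 CPM in myofibre-like nuclei. The log2 ratio ran from -2.45 (-2.59 to -2.35) in macrophage-like to -0.99 (-1.08 to -0.89) in satellite-like nuclei, and 2-fold was passed in 5 of 6 classes. Free RNA moved with it and further, at 1599.8 CPM in AHRfl/fl and 174.6 CPM in AHRmKO. It alone would give 324.8 CPM in each AHRfl/fl class, which is above the level measured in all but the endothelial class, and 37.7 CPM in AHRmKO. With free RNA subtracted, AHRfl/fl kept no Hsp90ab1 UMI in 5 of the 6 classes and the ratios of all 6 turned positive. That depends on the profile: in barcodes of at most 100 UMIs Hsp90ab1 was at 679.8 and 291.3 CPM, and with this profile subtracted UMIs were left in every class. The ratio was then -6.45 in macrophage-like (6.74 UMIs left in AHRmKO), -1.53 in endothelial-like, -0.85 in myofibre-like, -0.34 in fibroblast-like, 0.0026 in satellite-like nuclei and 0.51 in clusters 6, 7 and 18. The size and, in each class, the direction of the difference inside nuclei thus depend on whether and how free RNA is subtracted. Within AHRmKO, where free RNA is lower, the order was satellite (143.5 to 161.2), clusters 6, 7 and 18 (108.1 to 125.1) and endothelial (92.9 to 136.5), fibroblast (67.6 to 88.1) and myofibre (65.1 to 89.3), then macrophage-like nuclei, with overlap within the named pairs.

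Tiparp (ENSMUSG00000034640, chr3:65528410-65555518, plus strand) is induced by AHR and curbs it. It was present in all classes of both libraries, at 128.9 CPM (113.4 to 145.9) and 106.3 CPM (92.8 to 121.3) in myofibre-like and 106.8 CPM (101.4 to 112.4) and 122.5 CPM (114.8 to 130.6) in satellite-like nuclei. Macrophage-like nuclei held 80.3 and 83.2 CPM, fibroblast-like 68.4 and 108.6 CPM, and endothelial-like 54.0 and 56.1 CPM. Clusters 6, 7 and 18 stood at 72.8 and 50.7 CPM. Adipocyte-like nuclei, too few to be compared, held 137.7 and 130.5 CPM (80 and 52 UMIs), with intervals that overlap the highest compared class. Among the compared classes the order was in part that of Ahr and in part not. Of these, satellite-like nuclei came second for Ahr in both libraries and were the first for Tiparp in AHRmKO and the second in AHRfl/fl. Endothelial-like nuclei had the most Ahr in both libraries and the lowest Tiparp in AHRfl/fl. Myofibre-like nuclei had the least Ahr and, of the compared classes, the highest Tiparp in AHRfl/fl, a Tiparp rank kept under 8 of 12 alternatives. Between libraries the ratio was 0.66 (0.45 to 0.88) in fibroblast-like nuclei and -0.52 (-0.70 to -0.35) in clusters 6, 7 and 18. The fibroblast ratio lay between 0.50 and 0.79 under the alternatives run, while that of clusters 6, 7 and 18 ran from -0.71 with free RNA subtracted to -0.02 at a finer clustering. It was 0.20 (0.08 to 0.32) in satellite-like nuclei and its interval included 0 in macrophage-like and endothelial-like ones. In myofibre-like nuclei it was -0.28 (-0.55 to -0.01), with a changed sign under 2 of 13 alternatives. The highest level of any cluster, 221.0 CPM (199.5 to 244.0), was in the unnamed cluster 5 of AHRfl/fl, which holds all 12 immature markers and is led by haemoglobin genes, RNA of red cells. The gene's 5' end overlaps the pseudogene 4931440P22Rik of the other strand over 970 bases.

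Cyp1b1 (ENSMUSG00000024087, chr17:79701537-79715061, minus strand), a cytochrome P450 of the classic AHR battery, was a fibroblast gene here. Fibroblast-like nuclei held 114.2 CPM (105.9 to 123.0, 700 UMIs) and 81.1 CPM (71.1 to 92.0, 239 UMIs) and carried 70.1% (67.1 to 72.9) and 90.9% (86.7 to 94.1) of its UMIs. Adipocyte-like nuclei gave 42 UMIs (72.3 CPM) and 7 UMIs (17.6 CPM). In the fibroblast class the log2 ratio was -0.49 (-0.71 to -0.28), and it stayed negative, from -0.72 to -0.14, under the 11 alternatives that gave a value. All other compared classes lay at 1.84 to 10.9 CPM in AHRfl/fl and at 0 to 1.04 CPM in AHRmKO. There, free RNA alone would give 4.18 and 1.68 CPM, from 20.6 and 7.79 CPM in free RNA itself. The 2-fold gaps in macrophage-like (135 and 5 UMIs, -2.53, -5.15 to -2.25), satellite-like (45 and 1 UMIs, -2.58, -9.97 to -2.08) nuclei and in clusters 6, 7 and 18 (36 and 2 UMIs, -1.52, -5.64 to -0.59) lie at or below such levels. In AHRmKO their upper limits, 0.997, 0.735 and 1.14 CPM, were all under 1.68 CPM. In AHRfl/fl this held only for clusters 6, 7 and 18 (upper limit 2.55 against 4.18 CPM). For this gene the estimated share or level of free RNA is thus too high there. Endothelial-like nuclei of AHRfl/fl lay above the level that free RNA alone would give, at 10.9 CPM (6.25 to 17.8, 16 UMIs). With 1 UMI in AHRmKO, their log2 ratio of -2.89 (-8.79 to -0.71) rests on under 20 UMIs and was not called. After thinning, 17.7% and 11.1% of fibroblast-like nuclei held a Cyp1b1 UMI (30.9% and 19.3% without), against 0.782% and 0.123% of macrophage-like nuclei (1.56% and 0.205%), at median depths of 3966.5 and 3230 against 2964 and 3254 UMIs.

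Nqo1 (ENSMUSG00000003849, chr8:107388225-107403206, minus strand), a quinone reductase induced by both AHR and the oxidative stress factor NRF2, was rare, with its highest levels in myofibre-like and endothelial-like nuclei. Myofibre-like nuclei held 11.9 CPM (7.55 to 17.9, 23 UMIs) and 9.62 CPM (5.88 to 14.9, 20 UMIs), and endothelial-like nuclei 10.9 CPM (6.25 to 17.8, 16 UMIs) and 13.5 CPM (7.19 to 23.1, 13 UMIs). In the other compared classes it was at 0.869 to 1.97 CPM in AHRfl/fl and 0.678 to 2.37 CPM in AHRmKO, against 3.01 and 1.42 CPM in free RNA. Of all Nqo1 UMIs, 16.8% and 26.7% lay in myofibre-like nuclei, with 2.55% and 5.59% of all UMIs. Most of its UMIs lay elsewhere, among them 23.4% and 13.3% in macrophage-like and 19.7% and 24% in satellite-like nuclei, whose levels of 1.97 CPM (1.30 to 2.86) and 2.37 CPM (1.41 to 3.75) were above the 0.612 and 0.307 CPM that free RNA alone would give. Its 2 highest classes were thus the lowest and the highest compared class for Ahr. Myofibre-like nuclei stayed the highest class for Nqo1 in AHRfl/fl under only 6 of 12 alternatives, and endothelial-like nuclei in AHRmKO under 11 of 12. No ratio between libraries had an interval without 0 in a class with 20 UMIs. That of myofibre-like nuclei was -0.29 (-1.25 to 0.62) and ran from -1.76 to 1.71 under the alternatives, with a changed sign under 5 of 13.

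**Figure D3:**
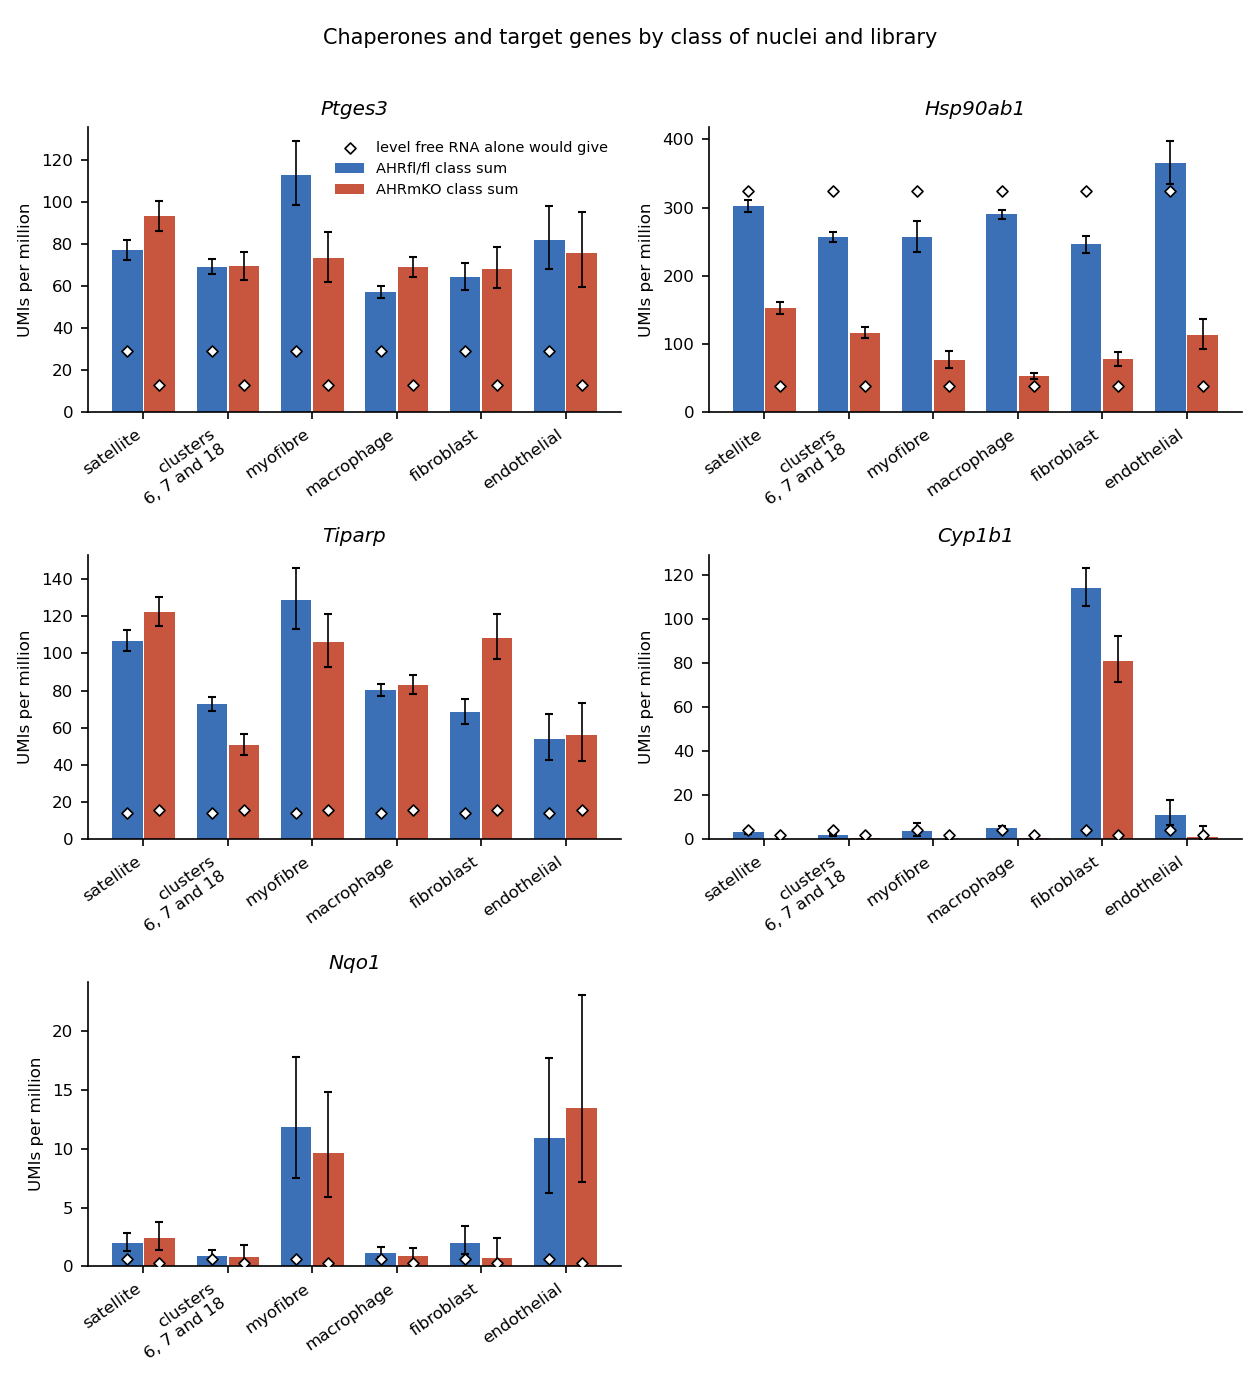
Level (y axes, UMIs per 1000000 of the class) of the chaperone genes Ptges3 and Hsp90ab1 and the target genes Tiparp, Cyp1b1 and Nqo1 in 6 classes of nuclei (x axes), AHRfl/fl in blue and AHRmKO in red. Lines are 95% Poisson intervals and diamonds the level that free RNA alone would give at the estimated shares. For Hsp90ab1 in AHRfl/fl the diamonds, at 324.8, lie above 5 of the 6 bars; Cyp1b1 stands at 114.2 and 81.1 in fibroblast-like nuclei and at 10.9 or less in the other classes.

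Read over all 9 genes, 43 pairs of gene and class had at least 20 UMIs over both libraries. None was 2-fold or more higher in AHRmKO and 8 were lower, namely Hsp90ab1 in 5 classes and Cyp1b1 in 3. Among all genes with 20 UMIs, 2-fold higher and lower shares were 4.95% and 18% in endothelial-like nuclei (members 0 and 1 of 6), 5.77% and 16.9% in fibroblast-like (0 and 1 of 6), and 4.7% and 19.3% in clusters 6, 7 and 18 (0 and 2 of 8). They were 3.1% and 19.3% in macrophage-like nuclei (0 and 2 of 9), 10.5% and 18% in myofibre-like (0 and 1 of 6), and 5.57% and 16.4% in satellite-like nuclei (0 and 1 of 8). Over all nuclei, 4.11% of genes were 2-fold higher and 13.7% lower, and of the 9 members 0 and 1, the latter being Hsp90ab1 (log2 ratio -1.37, -1.42 to -1.33). With so few members in a class, their counts lie near these background shares. The median log2 ratio of the members was 0.03 over all nuclei against -0.09 for all genes, and -0.32 against -0.09 in myofibre-like nuclei. With scaling by the median gene, all ratios would move up by 0.18 in clusters 6, 7 and 18 and 0.12 in macrophage-like nuclei, and by less than 0.1 in the other classes.

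**Figure D4:**
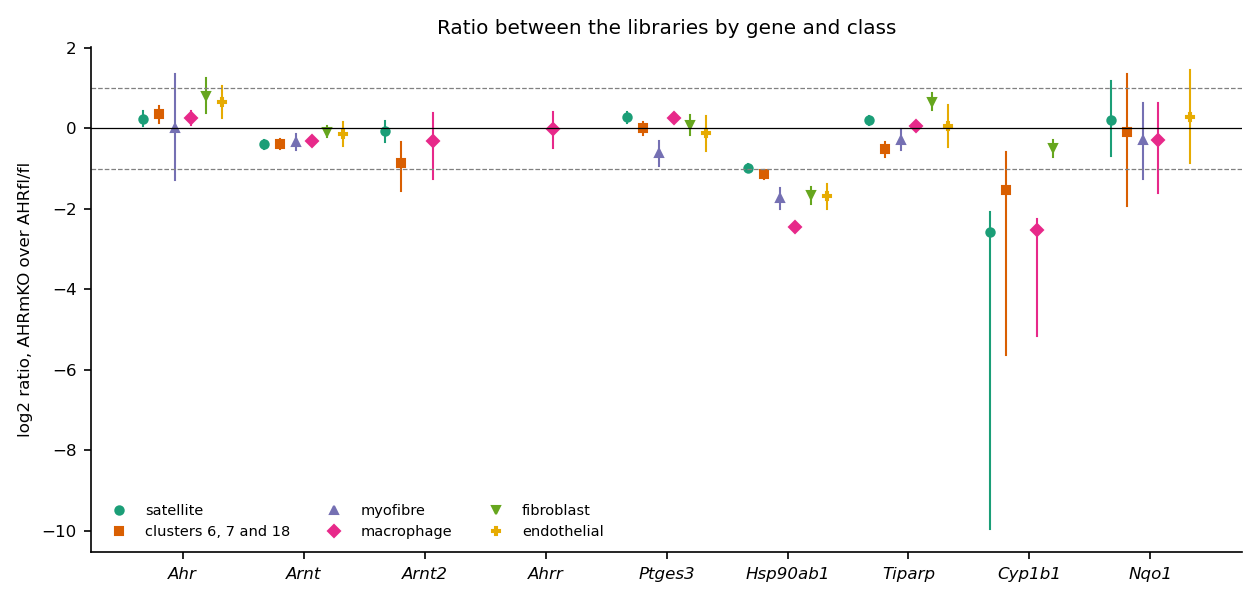
Log2 ratio of AHRmKO over AHRfl/fl (y axis) for each of the 9 genes (x axis) in each class with at least 20 UMIs over both libraries; colours and symbols are classes, lines 95% counting intervals, dashed lines 2-fold. Hsp90ab1 and the low Cyp1b1 values lie at or below -0.99, and the other genes lie between -0.85 and 0.80.

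A second reading set each class against free RNA of its own library, calling a gene above it at 2-fold or more with the lower limit of its interval over the free RNA level. In satellite-like nuclei Ahr and Arnt2 passed in both libraries and Arnt in AHRfl/fl, 3 and 2 of 9 members, where 35.3% and 28.1% of all genes passed. In endothelial-like nuclei Ahr and Nqo1 passed in both, Arnt in AHRfl/fl and Ahrr in AHRmKO, 3 and 3 of 9 members against 24.5% and 16.0% of genes. Macrophage-like nuclei had Ahrr in both and Arnt in AHRfl/fl (2 and 1 members; 30% and 23.5% of genes). Fibroblast-like nuclei had Cyp1b1 in both and Arnt in AHRfl/fl (2 and 1 members; 29.4% and 22.9%). Myofibre-like nuclei had Nqo1 in both and Arnt in AHRfl/fl (2 and 1 members; 17.1% and 11.6%), and clusters 6, 7 and 18 Arnt in AHRfl/fl (1 and 0 members; 26.8% and 17.3%). Ptges3, Hsp90ab1 and Tiparp passed in no compared class of either library. The shares of genes are over those with 20 UMIs in class and profile together. Against barcodes of at most 100 UMIs fewer members had 20 UMIs, and those that passed were 2 of 8 and 3 of 7 in satellite-like nuclei (17.7% and 19.9% of all genes), 1 of 6 and 1 of 6 in endothelial-like (10.1% and 14.3%) and 2 of 9 and 1 of 7 in macrophage-like nuclei (12.7% and 17.8%). They were 1 of 7 and 1 of 7 in fibroblast-like (15.8% and 18.4%), 3 of 7 and 1 of 7 in myofibre-like nuclei (9.06% and 11.3%) and 0 of 7 and 0 of 6 in clusters 6, 7 and 18 (13.9% and 13.3%). With so few members, nothing is read from these counts. The pairs that passed against both profiles in both libraries were Ahr in endothelial-like, Arnt2 in satellite-like, Ahrr in macrophage-like, Cyp1b1 in fibroblast-like and Nqo1 in myofibre-like nuclei. Nqo1 in endothelial-like nuclei was past both levels too, but on 16 and 13 UMIs. With the smallest barcodes it had under 20 UMIs in each library and is not in the counts above. Against the smallest barcodes Arnt passed in myofibre-like nuclei of AHRfl/fl alone, satellite-like nuclei passed for Ahr in AHRmKO but not in AHRfl/fl, Ahrr in endothelial-like nuclei of AHRmKO did not pass, and Tiparp passed in myofibre-like nuclei of AHRfl/fl and satellite-like nuclei of AHRmKO. The smallest barcodes held few UMIs of the rare members, 5 and 4 of Ahrr and 1 and 4 of Nqo1. Against them, the passes of Nqo1 in satellite-like, macrophage-like and fibroblast-like nuclei of AHRfl/fl rest on that 1 UMI (0.455 CPM, 0.0115 to 2.54), whose interval holds their levels, so that nothing can be read from them.

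Around these members, 5 wider lists of genes were read in myofibre-like and in all nuclei. Each myofibre-like ratio in them sets mostly cluster 8 of AHRfl/fl beside cluster 9 of AHRmKO. Of 13 chaperone and handling genes of AHR, 1 was 2-fold higher and 1 lower in myofibre-like nuclei, beside 10.5% and 18% of all genes. The same genes passed over all nuclei, beside 4.11% and 13.7% of all genes. With 13 genes, these counts lie near the shares. Stub1, the ubiquitin ligase that marks HSP90 clients for destruction, was higher (18.1 and 87.1 CPM, log2 ratio 2.23, 1.74 to 2.83; over all nuclei 1.25), though it overlaps Jmjd8 of the other strand. Hspa8, the constitutive HSP70, was lower (254.2 and 97.7 CPM, -1.38, -1.62 to -1.14; over all nuclei -1.01), with 1530.1 and 130.6 CPM in free RNA, a gap like that of Hsp90ab1. The list's median was -0.38 in myofibre-like nuclei against -0.09 for all genes.

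Of 18 other bHLH-PAS factors and partners of ARNT, 15 had 20 UMIs in myofibre-like nuclei, 2 of them 2-fold higher and 3 lower, near the 10.5% and 18% of all genes, with a list median of 0.44 against -0.09. The 3 lower genes were Npas2 at 49.2 and 8.18 CPM (-2.52, -3.43 to -1.83), Arntl at 298.7 and 102.0 CPM (-1.55, -1.78 to -1.32) and Clock at 268.7 and 108.7 CPM (-1.30, -1.54 to -1.08). Per2 was higher (17.1 and 51.5 CPM, 1.56, 1.02 to 2.20). Epas1, the hypoxia factor HIF-2α, was higher too (9.32 and 54.4 CPM, 2.48, 1.82 to 3.35), against 272.6 and 440.2 CPM in endothelial-like nuclei, where it is known to be strong. Over all nuclei Arntl had a ratio of only 0.03, and 2 of the 18 genes passed 2-fold, Npas1 (3.10 and 0.484 CPM) and Sim1 (17.5 and 7.71 CPM), both lower, where 13.7% of all genes were lower and 4.11% higher.

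The AHR target battery held 16 genes. Of these Cyp1a1, the most used readout of AHR activity, gave 1 UMI in all nuclei of AHRfl/fl and 0 in AHRmKO, and Cyp1a2 gave 0 in both, where 3 counts would be 0.040 and 0.081 CPM. Only 4 of the 16 had 20 UMIs in myofibre-like nuclei and 12 over all nuclei, and none of these passed 2-fold in either direction. Of all genes, 10.5% were 2-fold higher and 18% lower in myofibre-like nuclei, and 4.11% and 13.7% over all nuclei. With so few genes, a count of 0 lies near these shares. The list median was -0.41 in myofibre-like nuclei, over 4 genes, and 0.01 over all nuclei.

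Kynurenine and tryptophan metabolism makes and clears AHR ligands. Of 14 of its genes with 20 UMIs over all nuclei, 0 were 2-fold higher and 4 lower, where 4.11% and 13.7% of all genes were, with a list median of -0.30 against -0.09 for all genes. In myofibre-like nuclei the list median of 8 genes, -0.09, was that of all genes. Kmo, the enzyme that hydroxylates kynurenine, went from 1256 UMIs (16.6 CPM) in AHRfl/fl to 41 UMIs (1.10 CPM) in AHRmKO. Its log2 ratio was -3.41 (interval of the counts -4.40 to -3.46, without the added 0.5 CPM). It was low in AHRmKO in every class: 18.6 and 2.05 CPM in macrophage-like, 18.2 and 0.528 CPM in satellite-like, 29 and 4 UMIs in myofibre-like, 10.3 and 1.36 CPM in fibroblast-like and 9.56 and 3.11 CPM in endothelial-like nuclei. In clusters 6, 7 and 18 there were 298 UMIs and 0. Free RNA held 4.61 and 0.838 CPM, below each AHRfl/fl class, and Kmo overlaps Fh1 of the other strand over 5255 bases. Haao (104 and 5 UMIs), Tdo2 (105 and 7 UMIs) and Il4i1 (234 and 44 UMIs), enzymes that respectively use a late kynurenine product, open the tryptophan ring and oxidise tryptophan, were the others. In myofibre-like nuclei 2 of 8 genes were higher, Kyat1 (4.66 and 25.0 CPM, 2.31, 1.39 to 3.63) and Afmid (10.4 and 22.6 CPM, 1.09, 0.34 to 1.96), and 2 lower, Kmo and Sult1a1, where 10.5% and 18% of all genes were. The latter rests on 14 and 7 UMIs (7.25 and 3.37 CPM, -2.66 to 0.30 on the log2 scale), an interval that includes no change. Kyat1 encodes a kynurenine aminotransferase, which turns kynurenine into kynurenic acid.

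Of 10 NRF2 targets taken as companions of Nqo1, 4 were 2-fold lower in myofibre-like nuclei of AHRmKO and none higher, where 18% and 10.5% of all genes were, with a list median of -0.58 against -0.09. Srxn1, which repairs peroxiredoxins, stood at 59.0 and 17.3 CPM (-1.74, -2.35 to -1.22), and G6pdx at 22.3 and 8.18 CPM (-1.39). Gsr, glutathione reductase, stood at 97.8 and 41.4 CPM (-1.23, -1.63 to -0.87), and Me1, a source of NADPH, at 175.5 and 80.8 CPM (-1.11, -1.39 to -0.85). Nqo1 itself had -0.29 there. Over all nuclei none of the 10 passed 2-fold, where 4.11% of all genes were higher and 13.7% lower, so that with 10 genes this count lies near those shares. The myofibre-like nuclei of the libraries came from different clusters, 390 of 392 from cluster 8 in AHRfl/fl and 524 of 593 from cluster 9 in AHRmKO, and how much of these gaps belongs to the cluster was not tested.

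Finally, genes whose levels followed each member over the 6 classes were taken in each library apart, among 11099 genes with 200 UMIs in each, by the lower of the 2 Pearson correlations of log2(CPM + 1). The 6 points share libraries and depth, so these are descriptions. Nearest to Ahr came Hk1, a hexokinase (r = 0.98 and 0.99), followed by Atxn1l, Wdr24, Cdk17 and Cactin. Cyp1b1 was followed by Cyp26b1, which degrades retinoic acid, and by Tnxb, a matrix protein (r = 0.99 in AHRmKO). Ahrr was followed by Ccdc125 and Lyl1 (0.98 and 0.98), a blood-lineage transcription factor, and Arnt2 by Gm35019 and Tia1. For Nqo1 the nearest were Cpe and Spns2, for Arnt Fmnl2 and Clec2d, for Tiparp Ggact and Kat2a, and for Ptges3 Ddx21 and Urb2. Hsp90ab1 was followed by Eef1d and Rpl4, genes of the translation machinery.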

How the data were processed

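For 2 libraries the authors deposited unnormalised UMI counts of genes by barcode, with no barcode selected; per the file headers the matrices follow Cell Ranger format 4. Per the submitters' processing notes, Cell Ranger 7.0.1 and mm10 were used. Annotation, intron counting and use of strand are not given in the sources used here. Total counts were 151788328 and 113737134.

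Nuclei needed 2000 UMIs and at most 10% mitochondrial UMIs. The highest Scrublet scores (0.4% per 1000 nuclei) were removed, 1358 and 250. Counts were scaled to 10000 and log-transformed. From 2000 variable genes without the 9 members, 30 components, 15 neighbours and Leiden clusters at resolution 0.8 were computed on both libraries together in scanpy 1.11.5 (Python 3.11.15). A cluster took the class, of 18, with the largest share of markers 2-fold above the median of other clusters (10 CPM added), at least 3. It stayed unnamed where its 10 leading genes (50 CPM added) held more markers of another class, those of myofibres and immature myonuclei being counted as 1 class, or its median depth was over 2 times its library's. The thresholds for naming were chosen after seeing the data.

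UMIs were summed per class and library. CPM have exact Poisson intervals, shares exact Clopper-Pearson intervals. Log2 ratios add 0.5 CPM, which understates changes of low genes; their intervals are exact conditional binomial intervals of the counts. PCR and sampling of animals are not covered. The calculation was tested on simulated data. Classes needed 100 nuclei in each library. Always named were the 9 members, the 5 genes most like Ahr and 2 most like each other member, and of each wider list up to 3 highest and 3 lowest past 2-fold in myofibre-like and all nuclei. Other genes are named for context, chosen after their values were seen. The members and lists were chosen with earlier results of these data known. Loci are from GENCODE M21 (GRCm38).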

Additional observations from a re-analysis of the deposited data

Results flagged for a closer look

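The unnamed cluster 19 of AHRmKO has 1093 nuclei whose leading genes include Gm28653, Ttn and Dpp6, with 8 of 12 satellite and 7 of 12 immature markers. As clustered here it was in no class compared between the libraries, though it counts in the sums over all nuclei. In 1 alternative it was added to clusters 6, 7 and 18. Other clusterings put nuclei with such leading genes into that class too, as at resolution 1.5 (1077 AHRmKO nuclei in 1 cluster). In cluster 19, 3 of the 9 genes lay above the interval of all AHRfl/fl nuclei, a sum over all cell types, so that cell type and library cannot be told apart. Arnt2 was at 15.8 CPM (12.5 to 19.7), against 8.41 CPM (7.77 to 9.09) in all AHRfl/fl nuclei. Ptges3 was at 82.7 CPM, against 68.2 CPM. Tiparp was at 100.7 CPM (92.0 to 110.0), against 86.4 CPM. Ahr lay below, at 15.8 CPM (12.5 to 19.7) against 31.5 CPM (30.2 to 32.8), as did Arnt, at 105.2 CPM against 180.8 CPM. The AHRfl/fl library gave 31 nuclei to this cluster, too few to set beside it.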

How the results depend on the processing

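Of 18 alternative settings, some changed only a threshold or profile of the pair counts and gave no ratio. Under the others, the 54 ratios of gene and class gave 657 values. Among them, 520 lay within the counting interval of the reported value, 130 outside it, and 7 that had been past 2-fold changed sign. Of these, 5 are Hsp90ab1 with free RNA subtracted, with log2 ratios of 0.91 in endothelial-like, 6.67 in fibroblast-like, 7.66 in clusters 6, 7 and 18, 5.28 in macrophage-like and 6.64 in myofibre-like nuclei; in the last 4 no AHRfl/fl UMI was left, so the size depends on the added 0.5 CPM. With the profile of at most 100 UMIs subtracted, Hsp90ab1 became 0.51 in clusters 6, 7 and 18. The last is Cyp1b1 there, 0.65 when each nucleus was classed on its own markers (17 and 2 UMIs).

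The Ahr ratio of myofibre-like nuclei became -1.57 with 2 times the UMI minimum, 2.45 at resolution 1.5 and -2.56 with the libraries clustered apart. In these, 1 library's class held 234 to 362 Ahr UMIs and the other 10 or 11. With free RNA of at most 100 UMIs subtracted it was 1.90 (0 and 2.34 UMIs left), and under the other alternatives it stayed within its counting interval. The count of pairs 2-fold higher, 0 as reported, became 3 at 1.5-fold, 1 with 2 times the UMI minimum, 1 at resolution 1.5, 1 clustered apart, 6 with free RNA subtracted and 1 thinned to 2000 UMIs. That of pairs 2-fold lower, 8 as reported, became 2 with free RNA subtracted. With the profile of at most 100 UMIs subtracted these counts were 1 and 3. Leaving out macrophage cluster 12, adding 3 unnamed clusters to clusters 6, 7 and 18 and subtracting the profile of at most 100 UMIs were chosen after seeing the data. No paired analysis was possible because each group has 1 library. Depth limits Ahr in myofibre-like nuclei, where 3 counts are 1.55 and 1.44 CPM.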
